A study of Mus musculus with 6 samples.

Results

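The beta-like globin genes of the mouse encode the beta-type chains of hemoglobin. Their RNA was examined in the entire fetal liver of FVB/NJ embryos of day 13.5, 3 of them wildtype and 3 Klf1-/-, from matings of Klf1+/- mice. All probe sets whose gene names include Hbb-y, Hbb-bh1, Hbb-bh2, Hbb-b1, Hbb-b2, Hbb-bs or Hbb-bt were taken, which gave 5 of 34760 probe sets for these 7 genes. Hbb-y, Hbb-bh1 and Hbb-bh2 each had 1 probe set of their own. The 4 adult genes were named together on 2 joint probe sets, which are called the brighter and the dimmer adult set below. Both sets list the same 4 genes and the same 12 transcript accessions, so which adult gene each set mainly reads is not given by the annotation. Each liver was dissociated and its RNA read on a separate 1-colour Affymetrix Mouse Gene array, and n = 3 for each genotype. The labels name no allele beyond Klf1-/-, no litter, and no treatment, and all embryos share the strain and the stage.

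The genes of this cluster are used in sequence during development. Hbb-y and Hbb-bh1 are embryonic genes of the primitive red cells made in the yolk sac, which still circulate while the fetal liver starts to make definitive red cells. Definitive cells use the adult genes, named Hbb-bs and Hbb-bt in strains such as C57BL/6 and Hbb-b1 and Hbb-b2 in strains with the other common haplotype. A distant enhancer, the locus control region, acts on the whole cluster. Klf1, an erythroid Krüppel-like factor, binds CACCC-type sequences and is known for activating the adult gene, while Bcl11a and Sox6 are known repressors of the embryonic genes. The comparison asks how the RNA of each cluster member differs between livers with and without Klf1.

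Promoter sequences of 4 of the 7 genes were found in a RefSeq table of build GRCm38.p6, and they are shown because CACCC sequences are the known binding sites of Klf1. Each line gives the 250 bases before the transcript start, 5′ to 3′ on the minus strand of chromosome 7, and capitals mark every match to CACCC or CCNCNCCC on either strand. The windows are chr7:103827929-103828178 for Hbb-bs, chr7:103813924-103814173 for Hbb-bt, chr7:103853208-103853457 for Hbb-y and chr7:103840522-103840771 for Hbb-bh2.
Hbb-bs: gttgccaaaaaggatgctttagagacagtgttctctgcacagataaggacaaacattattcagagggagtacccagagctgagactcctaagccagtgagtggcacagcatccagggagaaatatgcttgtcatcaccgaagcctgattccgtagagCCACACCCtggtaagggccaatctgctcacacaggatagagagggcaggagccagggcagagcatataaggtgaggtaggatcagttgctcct
Hbb-bt: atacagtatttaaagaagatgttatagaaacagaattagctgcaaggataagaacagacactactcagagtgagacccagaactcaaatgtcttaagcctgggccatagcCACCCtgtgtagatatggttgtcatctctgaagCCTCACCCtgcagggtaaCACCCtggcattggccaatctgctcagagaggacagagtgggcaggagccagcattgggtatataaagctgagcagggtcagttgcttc
Hbb-y: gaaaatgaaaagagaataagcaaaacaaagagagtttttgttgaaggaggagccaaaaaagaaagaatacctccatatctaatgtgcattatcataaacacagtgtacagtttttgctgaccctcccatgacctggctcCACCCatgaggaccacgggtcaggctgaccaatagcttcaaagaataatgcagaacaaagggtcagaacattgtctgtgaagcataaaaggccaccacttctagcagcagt
Hbb-bh2: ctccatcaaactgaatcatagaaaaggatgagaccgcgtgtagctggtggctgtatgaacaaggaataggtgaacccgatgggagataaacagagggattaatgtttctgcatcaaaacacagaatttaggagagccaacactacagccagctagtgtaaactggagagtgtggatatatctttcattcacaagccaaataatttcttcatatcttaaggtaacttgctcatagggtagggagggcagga

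The 250 bases of Hbb-bs held 1 match to CACCC, from 90 to 86 bases before the start, inside a match to CCNCNCCC that read CCACACCC. Hbb-bt held 3 matches to CACCC, and the middle one lay inside its single match to CCNCNCCC, which read CCTCACCC. Hbb-y held 1 match to CACCC and 0 to CCNCNCCC, and Hbb-bh2 held 0 of either. Over 32851 promoter windows of the same length, 52.0% held CACCC and 45.9% held CCNCNCCC on at least 1 strand, so a match is common and is given as a description. CCAAT, present in 33.8% of windows, was found once in Hbb-bs and Hbb-y, 3 times in Hbb-bt over both strands, and 0 times in Hbb-bh2. A match to AGATAA, the core read by Gata1, was found in Hbb-bs and Hbb-bh2 and in 3281 of the 32851 windows. TATAAA, in 12.4% of windows, was found in Hbb-bt, and ATAAAA, in 17.0%, was found in Hbb-y. The upstream sequences of Hbb-bs and Hbb-bt were 73.3% identical over 243 aligned bases, against 52.6 to 62.1% for the other pairs. Hbb-bh1, Hbb-b1 and Hbb-b2 had no entry. The sequences are those of the C57BL/6J reference; the labels do not say which adult genes the FVB/NJ embryos carry, and their sequences may differ.

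The deposited values are intensities made by RMA, and all levels below are their log2. A change is the knockout mean less the wildtype mean of these log2 values, followed by ± its limma standard error, and a probe set is called at a limma adjusted p under 0.05, adjusted over all 34760 probe sets. Median intensities per array lay between 104.5 and 109.8, arrays correlated at 0.9916 to 0.9946 within a genotype and 0.9802 to 0.9838 between genotypes, and no 2 arrays held identical values. The targeted gene read 10.59, 10.58 and 10.76 in wildtype livers and 9.05, 9.38 and 9.12 in knockout livers, a change of -1.46 ± 0.11 (limma adjusted p = 3.8e-04). The altered part of Klf1 is not stated in the labels, so this probe set may lie outside it and is a limited check of the genotype.

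Without Klf1 the beta-like genes went in different directions. Both adult sets fell, by 7.22-fold and 2.16-fold, the embryonic gene Hbb-bh1 rose 3.71-fold, and neither the embryonic gene Hbb-y nor Hbb-bh2 was called. Of the 5 probe sets 3 were called, 1 higher and 2 lower, where 10.2% of all probe sets were called, 5.70% higher and 4.52% lower. In the same 3 the groups did not overlap, which held for 32.8% of all probe sets. The median change of the 5 was -0.04, which is the value of the dim Hbb-bh2, against -0.01 over all probe sets.

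**Figure D1:**
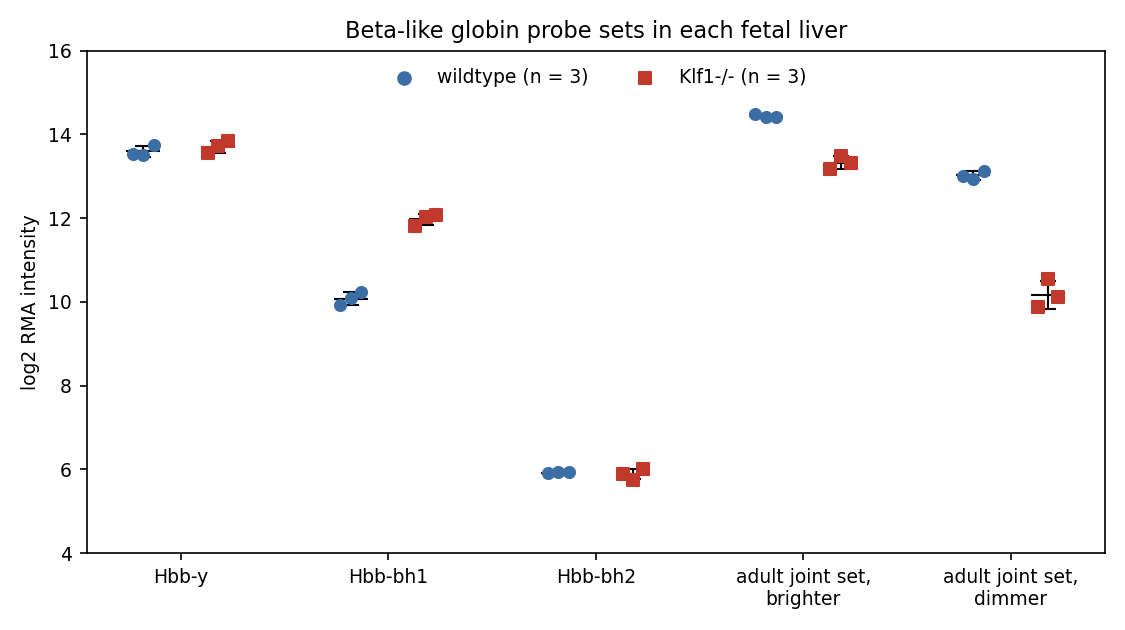
Log2 RMA intensity of the 5 beta-like globin probe sets (horizontal axis) in each of 3 wildtype livers (blue circles) and 3 Klf1-/- livers (red squares), with the mean and SD of each group as black lines. The groups are apart for Hbb-bh1 (10.08 against 11.97) and for both adult sets, and they overlap for Hbb-y and Hbb-bh2.

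The dimmer adult set had the largest change of the cluster. It read 13.02, 12.93 and 13.14 in the wildtype livers and 9.88, 10.54 and 10.11 in the knockout livers. Every knockout value lay more than 2 log2 units below every wildtype value, and the knockout livers also differed more among themselves, with an SD of 0.34 against 0.11. The change was -2.85 ± 0.17 (95% confidence interval -3.24 to -2.46, limma adjusted p = 1.3e-04), or 7.22-fold lower. On the linear scale its intensity went from 8371 ± 611 to 1179 ± 281 (SD, n = 3). Only 66 of the 34760 probe sets had a larger fall.

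The brighter adult set read 14.48, 14.41 and 14.42 in wildtype and 13.18, 13.49 and 13.33 in knockout livers. The groups did not overlap, and knockout replicate 2 was the highest of the knockout livers on this set as on the dimmer one. The change was -1.11 ± 0.10 (95% confidence interval -1.33 to -0.88, limma adjusted p = 6.4e-04), or 2.16-fold lower. In wildtype livers this set was the brightest of all probe sets on 2 arrays and ranked 3 on the other; on the knockout arrays it ranked between 91 and 135. Signal near the top of an array's range can be compressed, and whether this reduced the change of the brighter set was not tested. The dimmer set ranked 181 to 235 in wildtype and 2814 to 4373 in knockout livers.

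The adult sets changed by different amounts, although the annotation gives them the same genes. The log2 ratio of brighter over dimmer was 1.46, 1.48 and 1.29 in the wildtype livers and 3.30, 2.95 and 3.22 in the knockout livers, a shift of 1.74 (exact permutation p = 0.1, 2-sided, the smallest that 3 against 3 arrays allow). Such a ratio is taken within an array and does not move with a common scaling of that array, and its shift shows unequal change only.

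Hbb-bh1, which encodes an embryonic beta-type chain, was the member that rose. It read 9.92, 10.09 and 10.23 in wildtype and 11.82, 12.02 and 12.08 in knockout livers. The groups were far apart, with more than 1.5 log2 units between the highest wildtype and the lowest knockout liver. The change was 1.89 ± 0.11 (95% confidence interval 1.63 to 2.15, limma adjusted p = 1.4e-04), a 3.71-fold rise with an interval of 3.09 to 4.45. Of all 34760 probe sets 14 had a larger rise. Its intensity went from 1088 ± 118 to 4031 ± 366 (SD, n = 3), and its brightness rank moved from between 3489 and 4395 to between 699 and 840, below the top of the range in both genotypes.

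Hbb-y, the other embryonic gene, was bright in every liver and was not called. It read 13.53, 13.51 and 13.75 in wildtype and 13.56, 13.73 and 13.83 in knockout livers. The groups overlapped, with wildtype replicate 3 above knockout replicates 1 and 2. The change was 0.11 ± 0.11 (limma adjusted p = 0.562), with a 95% confidence interval from -0.14 to 0.36, that is from 0.906 to 1.28 times the wildtype level. This interval does not include a rise of the size seen in Hbb-bh1. Hbb-y ranked 49 to 81 in brightness in wildtype and 41 to 55 in knockout livers, so the caution about compression applies to it too.

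Hbb-bh2, a further beta-like gene of the cluster, was dim and was not called. It read 5.91, 5.94 and 5.93 in wildtype and 5.90, 5.75 and 6.003 in knockout livers, below the median probe set of 6.74, with a change of -0.04 ± 0.09 (95% confidence interval -0.24 to 0.16, limma adjusted p = 0.797). The knockout livers lay on either side of the wildtype ones. Its change was 0.01 after quantile normalization and 0.03 without knockout replicate 2, so its direction is not settled.

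**Figure D2:**
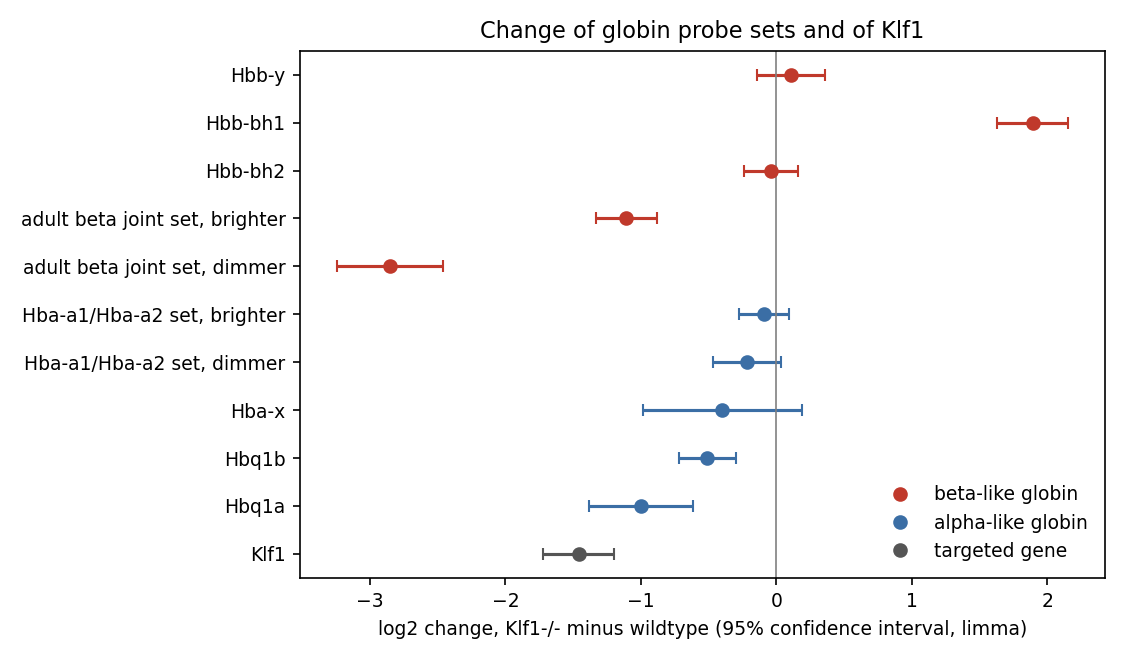
Log2 change with its 95% confidence interval from limma (horizontal axis) for the 5 beta-like globin probe sets (red), the 5 probe sets of alpha-like globins (blue) and Klf1 (grey). Hbb-bh1 lies at 1.89, the adult beta sets at -1.11 and -2.85, and the Hba-a1/Hba-a2 sets at -0.09 and -0.22.

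The members were also compared with each other within each array, as 10 pairs. In 9 of the 10 pairs the wildtype and knockout ratios did not overlap. These are the 9 pairs that hold at least 1 of the 3 called sets, so the count largely restates the single results. Each had an exact permutation p of 0.1 and 0.111 after Benjamini-Hochberg adjustment over the 10 pairs. No pair could therefore pass a threshold of 0.05. The exception was Hbb-y over Hbb-bh2, which shifted by 0.15 with overlapping groups (exact permutation p = 0.2, adjusted 0.2).

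The embryonic pair separated from each other. The log2 ratio of Hbb-y over Hbb-bh1 was 3.62, 3.42 and 3.52 in wildtype and 1.74, 1.71 and 1.76 in knockout livers, a shift of -1.78, so that Hbb-y was 3.44-fold lower relative to Hbb-bh1. The knockout ratios had an SD of 0.03 (n = 3), closer together than either gene's own values, with SDs of 0.14 and 0.13. The pair of Hbb-bh1 and the dimmer adult set shifted most, by 4.74 or 26.8-fold. Its log2 ratio was -3.10, -2.83 and -2.90 in wildtype and 1.94, 1.48 and 1.97 in knockout livers. Against the brighter adult set Hbb-bh1 shifted by 2.999. Hbb-y shifted by 1.22 against the brighter and by 2.96 against the dimmer adult set.

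**Figure D3:**
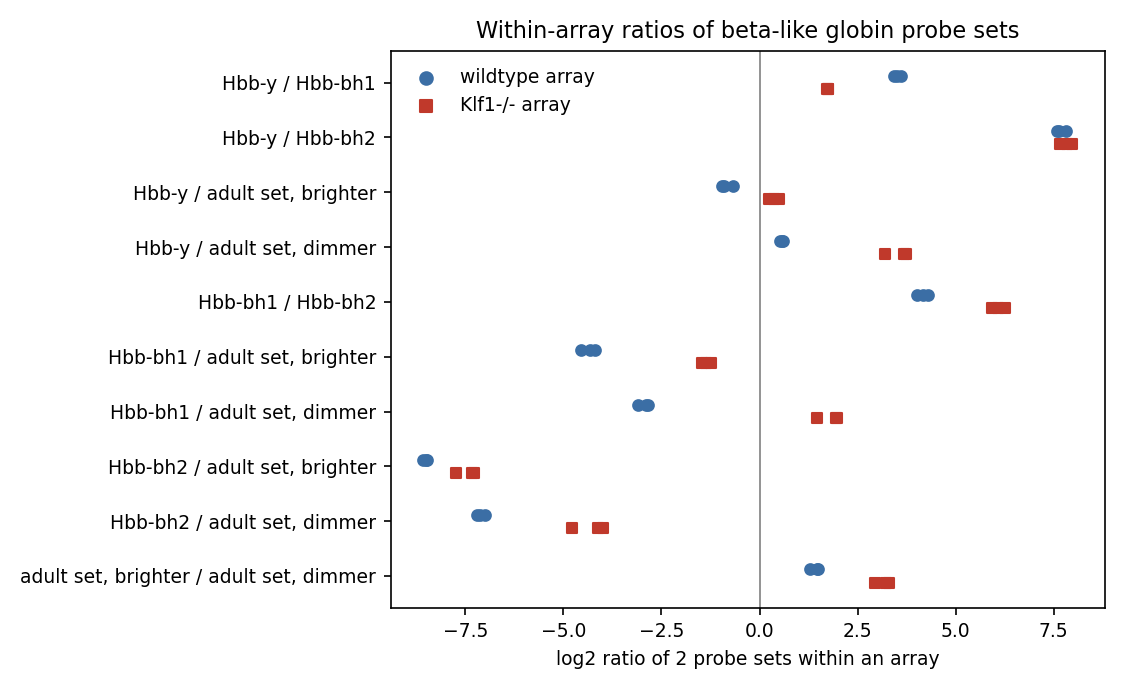
Log2 ratio of 2 beta-like globin probe sets within an array (horizontal axis) for the 10 pairs, in 3 wildtype arrays (blue circles) and 3 Klf1-/- arrays (red squares). The position of a pair depends on its probes and has no meaning of its own; the shift between colours is the result, and it is absent as a separation only in Hbb-y over Hbb-bh2.

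Regulators of the cluster were taken from a list of 35 genes, all measured by a probe set of their own. Of these 12 fell, 0 rose and 23 were not called. Klf1, whose loss is the design, is 1 of the 12, and without it 11 of 34 fell. Over 19937 genes, each read by its brightest single-gene probe set, 4.94% were called lower and 6.91% higher. The list median was -0.17, against -0.02 over all genes. In the same livers 12 of 13 measured red cell genes fell, with a median of -1.30. Whether the falls of the regulators are particular to them was not tested. Sox6 and Bcl11a, known repressors of the embryonic genes, were among those that fell. Sox6 read 10.47, 10.25 and 10.38 in wildtype and 7.54, 7.52 and 7.80 in knockout livers, a change of -2.75 ± 0.11 (limma adjusted p = 2.9e-05). Bcl11a read 11.58, 11.66 and 11.52 against 10.52, 10.66 and 10.58, a mean of 11.59 against 10.59 (limma adjusted p = 4.4e-04). Neither gene's groups overlapped. Several other listed repressors or co-repressors of embryonic globin genes were not called. Among them were the nuclear receptor Nr2c1 at 0.30, its partner Nr2c2 at -0.16 and Mbd2 at -0.25. Chd4 at 0.15, Hdac1 at 0.07 and the DNA methyltransferase Dnmt1 at -0.18 were not called either. Of the same list Zbtb7a, Klf3 and Ikzf1 were called lower, Ikzf1 at -0.333 ± 0.075 (limma adjusted p = 0.0347). Lin28b, a further listed regulator, was also called lower, at -0.563 ± 0.081 (limma adjusted p = 0.00617).

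Zbtb7a, a repressor of human fetal globin genes, fell by 1.11 ± 0.10, and Klf3, a Krüppel-like repressor that reads the same CACCC-type sites as Klf1, fell by 2.59 ± 0.08. Nfe2, a subunit of the NF-E2 factor, fell by 0.73 ± 0.08, and its partner Mafk fell by 0.96 ± 0.07. The related partner Mafg, at -0.27, and Bach1, which also pairs with Maf proteins, at 0.004, were not called. Lmo2 fell by 1.01 ± 0.07, Tcf3 by 0.44 ± 0.07 and Tal1 by 0.33 ± 0.07, all members of the complex that bridges the enhancer and the promoter. Gata1, of the same complex, read 10.60, 10.71 and 10.66 in wildtype and 10.53, 10.70 and 10.70 in knockout livers, and was not called, at -0.02 ± 0.08 (95% confidence interval -0.21 to 0.18). The complex's linker Ldb1, at -0.17, was also not called.

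**Figure D4:**
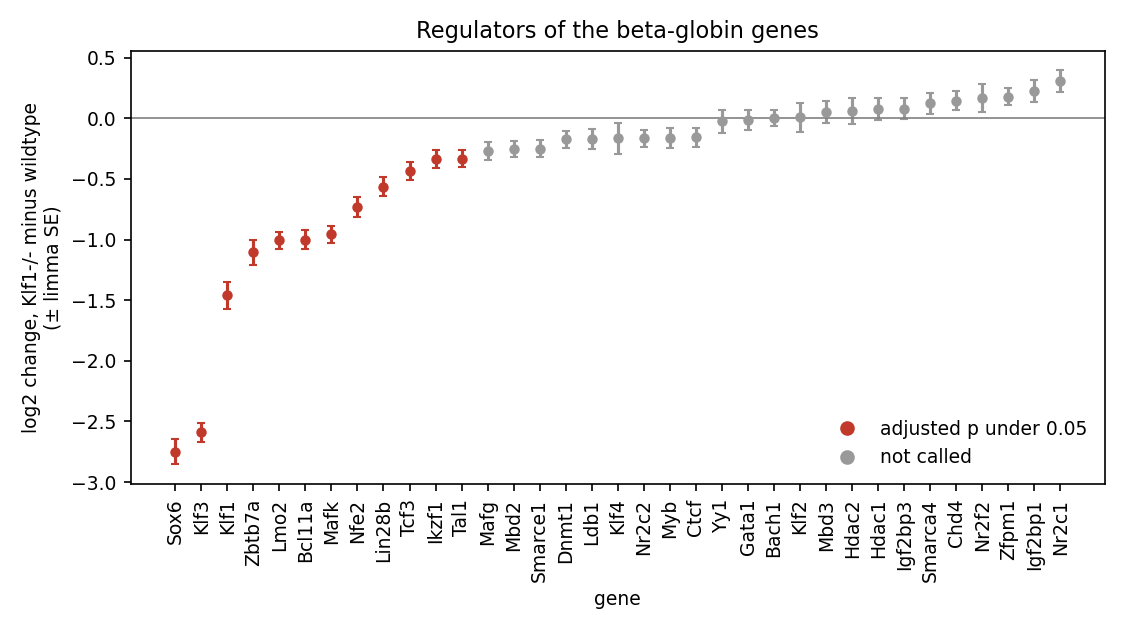
Log2 change with the limma standard error (vertical axis) for the 35 listed regulators (horizontal axis, in order of change); red marks the 12 at an adjusted p under 0.05. Sox6 at -2.75 and Klf3 at -2.59 lie lowest, and none of the positive changes was called.

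The alpha-type chains, which pair with the beta-type chains in hemoglobin, had smaller changes on their adult sets than the adult beta sets had. Hba-a1 and Hba-a2 share 2 joint probe sets. The brighter read 14.42, 14.35 and 14.35 in wildtype and 14.18, 14.31 and 14.35 in knockout livers, with overlapping groups and a change of -0.09 ± 0.08 (95% confidence interval -0.27 to 0.10). The dimmer changed by -0.22 ± 0.11 (95% confidence interval -0.47 to 0.03). Neither was called (limma adjusted p = 0.511 and 0.246). These sets ranked 4 to 6 and 35 to 41 in brightness in wildtype livers, near the top of the range like the brighter adult beta set, and whether compression reduced their changes was not tested. Hba-x, the embryonic alpha-like gene, was spread widely, from 11.59 to 12.27 in wildtype and 11.15 to 11.98 in knockout livers, and was not called at -0.40 ± 0.25. Of the 5 alpha-like probe sets 2 fell, those of Hbq1a (-0.996 ± 0.162) and Hbq1b (-0.51 ± 0.09), which are nearly identical genes and may share signal. This count was 1 without knockout replicate 2, and 1 without knockout replicate 3.

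Markers of the labelled tissue were present. The hepatoblast genes Afp and Alb averaged 13.31 and 13.93 in wildtype livers, and 0 of 11 measured hepatoblast genes were called by limma, with 2 at an unadjusted p under 0.05 and 2 called lower when single-gene probe sets alone were fitted. Red cell genes, none of them particular to definitive cells here, fell as the adult globin sets did. Of 13 measured, 12 fell and 0 rose, with a median of -1.30, led by Aqp1, a water channel, at -1.97 ± 0.13 and Slc25a37, the mitochondrial iron importer, at -1.97 ± 0.07. Their summed intensity was 82664 to 90567 in wildtype and 41645 to 44813 in knockout livers. In a whole liver, fewer red cells and less RNA per cell cannot be told apart. The dimmer adult set fell by more than all 13 of these markers, and the brighter adult set by less than 7 of them. The carbonic anhydrase Car2, at 0.07, was not called.

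Other blood cell markers moved too, and their part in the globin results was not tested. Of 8 megakaryocyte genes 7 rose (3 without knockout replicate 2, 4 without wildtype replicate 2), with Itga2b at 1.05 ± 0.13 and Clec1b at 0.84 ± 0.14; their summed intensity was 15097 to 15831 in wildtype and 19522 to 25613 in knockout livers. Of 10 granulocyte genes 3 rose, with Ms4a3 at 0.61 ± 0.12 and Mpo at 0.58 ± 0.11, and 0 without knockout replicate 2 or without knockout replicate 3. Their sum went from between 5713 and 6397 to between 7315 and 9219. Of 12 macrophage genes 6 fell and 0 rose, with Lgmn at -0.94 ± 0.11 and Cd5l at -0.90 ± 0.15, and sums of 6320 to 7719 against 4418 to 4977. Without moderation of the variances, 1 megakaryocyte, 0 granulocyte and 3 macrophage genes were called. At a limma adjusted p under 0.01 these counts were 2, 0 and 3. Of 9 endothelial genes 0 were called by limma, with 3 at an unadjusted p under 0.05 (3 rose without wildtype replicate 3), with sums of 4328 to 6079 against 4545 to 5422. The sum of the hepatoblast genes was 58163 to 68629 against 56411 to 60382. No marker of these lists separates primitive from definitive red cells beside the embryonic globin genes themselves.

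No change was called in the chromosomal surroundings of the cluster. In the RefSeq gene order of chromosome 7 the adult genes Hbb-bt and Hbb-bs lie at one end, followed by Hbb-bh2, Hbb-bh1 and Hbb-y, and olfactory receptor genes flank the cluster on both sides. The 10 nearest genes with a probe set of their own on each side were all olfactory receptors, known for their use in the olfactory epithelium. Their mean levels ran from 3.45 to 5.84, below the median probe set. Of these 20 genes 0 were called by limma, and 0 had an unadjusted p under 0.05; their changes ran from -0.11 in Olfr66, the nearest on the Hbb-y side, to 0.26 in Olfr243. The nearest gene on the adult side, Olfr67, changed by 0.05. At such low levels a change in these genes would be hard to see.

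**Figure D5:**
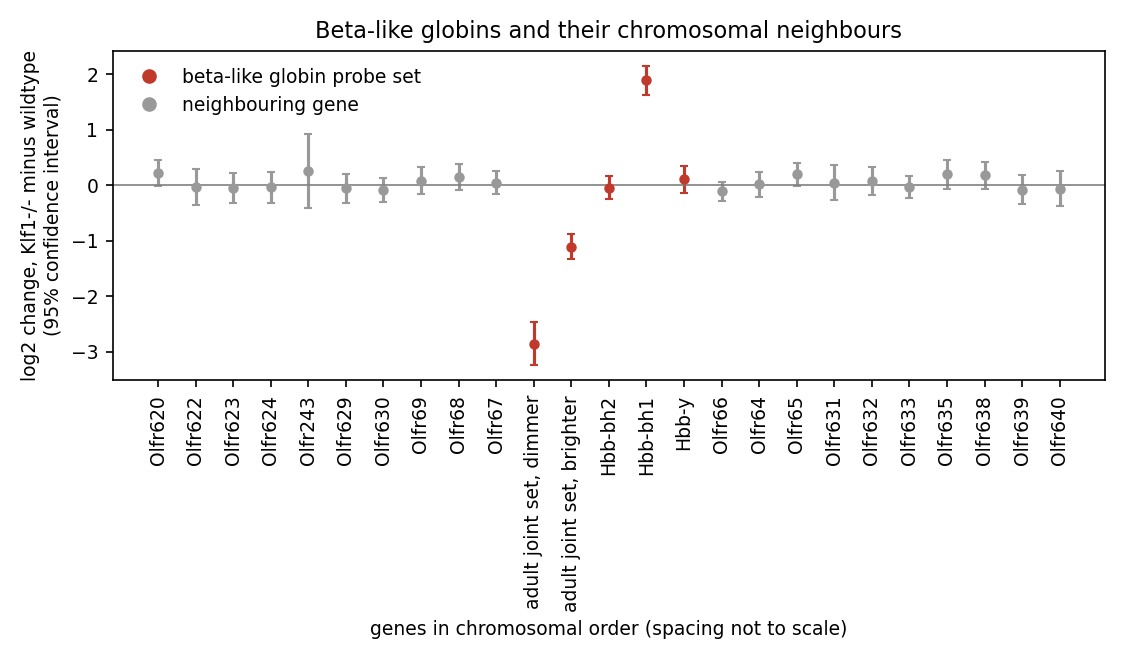
Log2 change with its 95% confidence interval (vertical axis) for the beta-like globin probe sets (red) and the 10 nearest measured genes on each side (grey), in the gene order of GRCm38.p6. The adult joint sets name the same genes, so their order relative to each other carries no position; the neighbours lie between -0.11 and 0.26.

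Genes whose pattern over the 6 arrays was most like that of a member were found by the distance between log2 profiles, each less its own mean. For Hbb-bh1 the nearest were Cox6b2, a cytochrome c oxidase subunit gene, at a distance of 0.29 with a change of 1.66, then Fam160a1 (0.32), Srxn1, which encodes sulfiredoxin (0.36), Hesx1 (0.43) and Cda, the cytidine deaminase gene (0.43). Cox6b2 read 8.56, 8.68 and 8.87 in wildtype and 10.22, 10.41 and 10.46 in knockout livers. It was picked as the closest profile, so its likeness is a description, and most of it is the gap between genotypes. For the brighter adult set the nearest were Cdkn2d, a cell cycle inhibitor gene, at 0.11, Stk10 at 0.13, Septin8 at 0.13, Rab8b at 0.16 and Tprgl at 0.16, with changes from -1.14 to -1.06. For Hbb-y the nearest were Snhg17, Wdr60, Cd151, Spef2 and Inca1, at 0.05 to 0.08, none of them called. Their correlations with Hbb-y were 0.971 to 0.996 over 6 arrays, so they shared its differences between livers, for which they were picked.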

How the data were processed

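RNA of 6 fetal livers was measured on 6 arrays, 3 per genotype. The authors' deposited intensity values come from RMA as run by Affymetrix Power Tools (version 1.8.6), per the submitters' processing notes. For build and annotation, nothing is given in the sources used here. RMA equalises the arrays, so a change in total RNA cannot be seen. The deposited intensities are linear, and log2 was taken without renormalizing and without filtering dim probe sets. Probe sets were named from the platform annotation: 21640 had 1 gene, 1321 several and 11799 none named here; 0 symbols changed through GRCm38.p6 identifiers. RefSeq sequences and gene order come from that build.

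Genotypes were compared with limma 3.58.1 (lmFit, then eBayes, in R 4.3.3) over all 34760 probe sets, 2-sided, with Benjamini-Hochberg adjustment. The code was also run on simulated data with independent noise per probe set, which cannot check the calls made here. Listed genes were read by their brightest single-gene probe set. The labels do not say whether litters differed; p-values then measure only the spread between these samples. The number of arrays limits the precision. The members and lists were chosen with earlier results of these data known. Genes named are all members, the alpha-like globins, Klf1, fixed regulators with the 4 largest called changes, up to 2 called markers per list and the 5 most alike genes per profile. Mafk, Mafg, Bach1, Lmo2, Tcf3, Tal1, Ldb1, Ikzf1, Lin28b, Nr2c1, Nr2c2, Mbd2, Chd4, Hdac1, Dnmt1, Afp, Alb, Car2 and the neighbours named were chosen after their values were seen. Alternatives covered scaling, filters, variance models, weights, a replicate block, a stricter threshold and leaving out each array.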

Additional observations from a re-analysis of the deposited data

How the results depend on the processing

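The falls of both adult sets and of Klf1 and the rise of Hbb-bh1 kept their direction and their call under every alternative that could be fitted. Their changes ranged from -3.03 to -2.71 for the dimmer adult set, from -1.19 to -1.03 for the brighter and from 1.81 to 1.97 for Hbb-bh1. The largest adjusted p was 0.0144, for the brighter set without moderation, where an ordinary t test was used. Hbb-y stayed positive and uncalled, from 0.04 to 0.18. Hbb-bh2 was never called and turned to 0.013 with quantile normalization and to 0.025 without knockout replicate 2, and with 1 array left out it ran from -0.100 to 0.025; it could not be fitted with the filter on dim probe sets, nor could the joint sets with single-gene probe sets alone. The count of called probe sets, 3550, was 2268 without moderation, 1425 at an adjusted p under 0.01 and 1764 to 2853 with 1 array left out, where fewer arrays were fitted; it was 2147 without wildtype replicate 2, 1764 without knockout replicate 2 and 1811 without knockout replicate 3. Of the 3550 calls 44.2% were lower, and 55.1% with 75th percentile centring. The filter on dim probe sets made 4320 calls and single-gene probe sets alone 3809, over fewer tests. Of the alpha-like probe sets 1 was called with the filter, which removed Hbq1a, 1 without moderation, 0 at the stricter threshold and 1 to 2 with an array left out. Regulators called ranged from 9 to 16, 1 of them higher with the filter and with single-gene probe sets, and 0 neighbours were called in any setting fitted. With a replicate block 2596 probe sets and 10 regulators were called, and no call of a beta-like globin changed. Over all probe sets same-numbered livers had deviations correlated at -0.01, -0.13 and 0.19. Of 6 arrays 2 correlated best with their own number. These correlations cannot exclude a factor shared by same-numbered livers. Hbb-bh1 and Hba-x increased in order of replicate number in both genotypes. With the block the standard error went from 0.111 to 0.082 for Hbb-bh1 and from 0.106 to 0.087 for Hbb-y. It went from 0.166 to 0.163 for the dimmer adult set, from 0.095 to 0.104 for the brighter and from 0.085 to 0.093 for Hbb-bh2.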

Other observations

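The balance of adult beta to adult alpha signal was set out after the values were seen, as 4 within-array ratios of the joint probe sets. The brighter beta set over the brighter alpha set was 0.06, 0.06 and 0.07 on the log2 scale in wildtype livers and -1.01, -0.83 and -1.03 in knockout livers, a shift of -1.02. Against the dimmer alpha set the shift was -0.89. The dimmer beta set shifted by -2.76 and -2.64 against the brighter and the dimmer alpha set. The groups did not overlap in any of the 4 ratios, and each had an exact permutation p of 0.1, 2-sided, the smallest possible, or 0.12 adjusted over 6 added ratios. A shift shows unequal change of beta and alpha probe sets, not the amounts of the chains. The brighter beta set and both alpha sets lie near the top of the intensity range, where unequal compression was not tested. The dimmer beta set ranked 181 to 235 in brightness in wildtype and 2814 to 4373 in knockout livers. The shift of the brighter beta set over the brighter alpha set was -1.15 after quantile normalization.

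The other 2 added ratios set the embryonic beta-like genes against Hba-x, the embryonic alpha-like gene. Hbb-bh1 over Hba-x was -1.68, -1.76 and -2.04 in wildtype and 0.68, 0.62 and 0.09 in knockout livers, a shift of 2.29 with no overlap (exact permutation p = 0.1, adjusted 0.12). Hbb-y over Hba-x was 1.94, 1.66 and 1.48 against 2.41, 2.32 and 1.85, a shift of 0.50 with overlapping groups (exact permutation p = 0.2, adjusted 0.2).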
